A study of Mus musculus with 12 samples.

Results

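The Ikaros family genes, Ikzf1 to Ikzf5, held 65 of the 94161 regions of open chromatin measured by ATAC-seq in mouse splenic B cells. In ATAC-seq the Tn5 transposase cuts and tags DNA where it is accessible, so reads pile up at promoters and enhancers. A region was counted as a member when the protein-coding gene that overlaps it or lies nearest to it is one of the 5 genes. By this rule Ikzf1 held 38 regions, Ikzf2 held 3, Ikzf3 held 18, Ikzf4 held 4 and Ikzf5 held 2. The assignment is one of position, and nothing in the data ties a region to the transcription of its gene.

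Ikaros family proteins are zinc-finger transcription factors of lymphocytes. Their amino-terminal fingers bind DNA at a GGGAA core, and their carboxy-terminal fingers join family members into dimers. Ikaros and Aiolos recruit corepressors such as the NuRD complex, in which the histone demethylase LSD1 can also take part, and cereblon-binding drugs lead both human proteins to degradation. Ikaros (Ikzf1) is needed for B lymphocytes to form at all. Aiolos (Ikzf3) rises as B cells mature and restrains their receptor signalling, and mice without it lack marginal zone B cells. Helios (Ikzf2) and Eos (Ikzf4) are best known from regulatory T cells, and Pegasus (Ikzf5) is the more distant, widely expressed relative.

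The comparison covered 4 groups of 3 libraries each. These were marginal zone B cells (MZB) labelled knockout for LSD1, MZB labelled wild-type, follicular B cells (FoB) labelled knockout and FoB labelled wild-type. All came from spleens of female C57BL/6J mice, without stimulation, at 10000 sorted cells a library. MZB were sorted as CD23- CD21hi CD1d+ cells and FoB as CD23+ CD21mid CD1d- cells, and both sorts took B220+ cells without Thy1.1, F4/80, CD11b, CD93 or GL7. The sources used here do not give the age of the mice, the deleted part of the LSD1 gene Kdm1a, the Cre line or the cells in which it acted, nor whether the 3 libraries of a group came from separate animals. The p-values below therefore measure the spread between libraries. MZB lie at the edge of the splenic follicle and answer blood-borne antigens early, while FoB recirculate through the follicles.

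Values are rppm, the reads of a region scaled so that the listed regions of a library sum to 1000000. The libraries held 3169966 to 10375328 such reads, so 3 reads are worth 0.289 to 0.946 rppm, and these floors cover counting error only. The region tested at Kdm1a (chr4:136601890-136603082) stood at 25.0 ± 5.55 rppm in KO MZB against 23.0 ± 6.05 rppm in WT MZB, and at 20.6 ± 0.0610 rppm in KO FoB against 22.8 ± 1.92 rppm in WT FoB (SD, n = 3), so it does not check the genotype labels. Of 127 regions near marginal zone B cell markers, 67 were higher and 8 lower in WT MZB than in WT FoB (59.1% called). Of 105 near follicular B cell markers, 2 were higher and 38 lower (38.1% called). Of all regions 24.2% were higher and 11.4% lower. These lists hold genes of the sort markers, Cr2 (CD21) and Cd1d1 (CD1d) for MZB and Fcer2a (CD23) for FoB. The counts are therefore not independent of the sort.

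T cell markers were measured because Helios and Eos are T cell genes. Sums in this paragraph take in every region of the listed genes, while calls are counted among the regions tested. The T cell marker regions summed to 280 to 293 rppm in KO MZB and 286 to 299 in WT MZB. In FoB they summed to 195 to 221 rppm in KO and 192 to 210 in WT. Among them 36 were tested. Of these, 15 were higher and 0 lower in KO MZB than in KO FoB (41.7%, against 32.7% of all regions, 23.2% higher and 9.47% lower), and 12 were higher and 3 lower in WT MZB than in WT FoB (41.7%, against 35.7% of all, 24.2% higher and 11.4% lower). Among T cell markers Cd3g, Cd4, Cd8a and Bcl11b had no region, and none at Cd3e, Cd3d or Thy1 was called. Myeloid markers, of which Mpo and S100a8 had no region, had 31 tested regions. All regions of these genes summed to 281 to 308 rppm in KO MZB and 245 to 256 in WT MZB. In FoB the sums were 225 to 237 rppm in KO and 226 to 232 in WT. Of the 31 tested, 2 were higher in KO MZB than in WT MZB (6.45%, against 0.777% of all regions). Markers of immature and transitional B cells had 62 tested regions. All regions of these genes summed to 479 to 483 rppm in KO MZB and 360 to 384 in WT MZB. In FoB the sums were 571 to 621 rppm in KO and 534 to 574 in WT. Of the 62 tested, 6 were higher in KO MZB than in WT MZB (9.68%, against the same 0.777%). Natural killer cell markers had 24 tested regions. All regions of these genes summed to 351 to 386 rppm in KO MZB and 328 to 334 in WT MZB. In FoB the sums were 398 to 423 rppm in KO and 369 to 411 in WT. None of the 24 was called by limma for genotype (7 in MZB and 7 in FoB at an unadjusted p under 0.05). The part of these cells in the results below was not tested.

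The promoter sequences below are those of 3 strong member regions, none of which was called in any comparison. RefSeq sequences on GRCm38.p6 (mm10) gave 300-base windows, 250 bases before to 50 after an annotated start, for Ikzf1 and Ikzf5. Ikzf1 had a window at each of 2 starts. The first (chr11:11685675-11685974, plus strand) lies in Ikzf1 region 11, and the second (chr11:11689927-11690226, plus strand) overlaps Ikzf1 region 12, which holds its start. The gene body of Ikzf1 begins before both, at chr11:11684962 in Ikzf1 region 10, where no window was given. The Ikzf5 window (chr7:131410429-131410728, minus strand) lies in Ikzf5 region 2. Members are numbered along the chromosome. The strand of Ikzf2, Ikzf3 and Ikzf4 was not used, so an end of these genes is named by coordinate and may hold the start. Capitals mark GGGAA or its reverse complement TTCCC.
Ikzf1 first start: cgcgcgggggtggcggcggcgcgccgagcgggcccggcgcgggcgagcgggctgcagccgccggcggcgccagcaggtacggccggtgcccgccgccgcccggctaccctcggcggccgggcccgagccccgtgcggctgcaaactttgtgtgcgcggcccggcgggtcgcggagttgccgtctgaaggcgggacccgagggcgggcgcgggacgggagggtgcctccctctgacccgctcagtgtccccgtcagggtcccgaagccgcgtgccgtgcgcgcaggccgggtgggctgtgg
Ikzf1 second start: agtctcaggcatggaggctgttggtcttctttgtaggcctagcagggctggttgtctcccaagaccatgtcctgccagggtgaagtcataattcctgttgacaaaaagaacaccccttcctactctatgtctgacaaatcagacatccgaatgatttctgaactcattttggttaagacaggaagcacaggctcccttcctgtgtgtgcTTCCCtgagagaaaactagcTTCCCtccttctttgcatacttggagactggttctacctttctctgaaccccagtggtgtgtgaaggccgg
Ikzf5: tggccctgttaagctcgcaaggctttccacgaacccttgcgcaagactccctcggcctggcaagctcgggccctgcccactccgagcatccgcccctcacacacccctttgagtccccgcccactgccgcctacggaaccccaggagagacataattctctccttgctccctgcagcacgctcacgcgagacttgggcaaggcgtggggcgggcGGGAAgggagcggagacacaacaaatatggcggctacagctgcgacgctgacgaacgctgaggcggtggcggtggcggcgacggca
The first Ikzf1 window was 81.3% G and C with 52 CG pairs and no GGGAA on either strand. The second was 49.0% G and C with 2 CG pairs and 2 TTCCC, so the 2 windows of this gene differ in their base composition. The Ikzf5 window was 65.7% G and C with 27 CG pairs and 1 GGGAA. Among all 32851 promoter windows the median was 52.7% G and C and 7 CG pairs, and 62.7% held GGGAA on one strand or the other. A match in these letters is no measure of binding.

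Ikzf1 and Ikzf3 held many more regions than the median gene. Ikzf1, with 38, was among 165 of 16438 genes that had at least as many, and the median gene had 3. Gene bodies overlapped 49 of the 65 members (75.4%), against 57.3% of all assigned regions. Member regions were 336 bp wide at the median, against 339 bp for all. The 64 that passed the filter (at least 1 rppm in at least 3 libraries) had a median level of 6.95 rppm, against 4.21 rppm for all regions tested, and ran from 0.812 to 40.1 rppm. The member that did not pass was Ikzf1 region 8, between 0 and 2.46 rppm in the 12 libraries.

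Summed over its regions, accessibility at Ikzf1 was called in no comparison, and Ikzf4 was the one gene of the family whose sum differed between the WT cell types. Ikzf1 (chr11:11684962-11772930, plus strand) summed to 430 ± 27.5 rppm in KO MZB, 442 ± 18.4 in WT MZB, 436 ± 21.1 in KO FoB and 448 ± 13.8 in WT FoB (SD, n = 3 each). The libraries of each group overlapped those of every other. Ikzf3 (chr11:98464610-98546031) summed to 152 ± 13.4 rppm in KO MZB, 151 ± 11.9 in WT MZB, 135 ± 3.79 in KO FoB and 141 ± 3.33 in WT FoB. Ikzf5 (chr7:131388649-131410518) summed to 40.3 ± 4.52, 36.7 ± 2.91, 43.8 ± 4.78 and 42.7 ± 4.32 rppm in KO MZB, WT MZB, KO FoB and WT FoB. Ikzf2 (chr1:69531207-69687351) summed to 17.1 ± 2.01, 14.9 ± 0.550, 15.2 ± 2.70 and 14.8 ± 4.89 rppm in the same groups. At both genes every group overlapped every other, and limma called neither sum in any comparison.

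At Ikzf4 (chr10:128630839-128669671) the 3 libraries summed to 25.0, 23.7 and 15.7 rppm in KO MZB, 22.9, 24.2 and 24.6 rppm in WT MZB, 11.4, 18.5 and 17.0 rppm in KO FoB, and 13.4, 14.3 and 13.4 rppm in WT FoB. The WT cell types did not overlap, while KO MZB library 3 fell among the KO FoB libraries. The sum was higher in KO MZB than in KO FoB by 0.44 ± 0.17 on the log2 scale (SE, limma adjusted p = 0.0447, over 16275 genes of which 41.9% were called). Between WT cells the difference was 0.78 ± 0.17 (limma adjusted p = 0.000678, background 47.8%), and it was called without any 1 library too. The KO call was lost without any 1 of 7 libraries, namely KO MZB libraries 1 and 2, all 3 WT MZB libraries, KO FoB library 1 and WT FoB library 3 (limma adjusted p up to 0.307), and the difference was 0.24 without KO FoB library 1. At Ikzf3 the sum was higher in KO MZB than in KO FoB by 0.17 ± 0.07 (limma adjusted p = 0.0487), and that call was lost without any 1 of 9 libraries, all but KO MZB library 1, WT MZB library 3 and WT FoB library 1 (limma adjusted p up to 0.266, with a difference of 0.10 without KO MZB library 2). In WT cells the Ikzf3 difference was 0.09 ± 0.07 (limma adjusted p = 0.269). No gene sum of the family passed for KO against WT in MZB (background 3.01%), in FoB (background 1.46%) or for the difference between those 2 effects (background 0.0123%). The smallest of those 15 limma adjusted p-values was 0.579, for Ikzf5 in MZB.

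**Figure D1:**
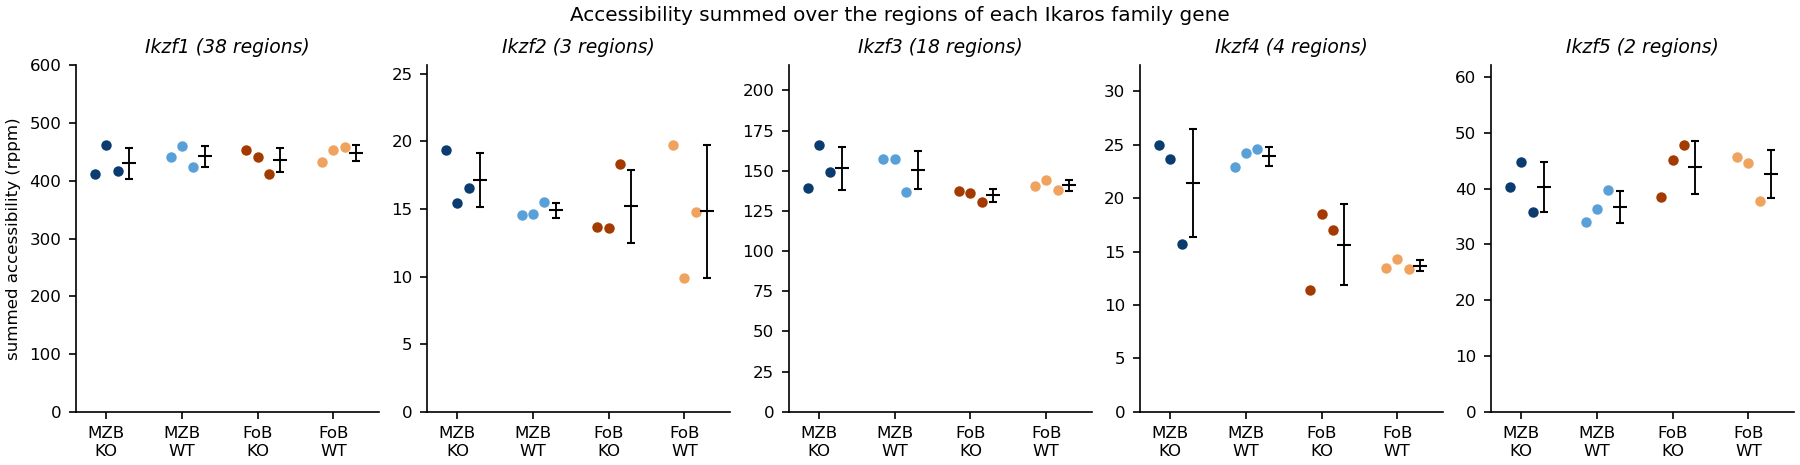
Accessibility summed over the regions of each gene, in rppm on a linear axis from 0, for KO MZB, WT MZB, KO FoB and WT FoB. Points are libraries and bars are mean ± SD (n = 3). Ikzf4 shows WT MZB at 22.9 to 24.6 rppm above WT FoB at 13.4 to 14.3 rppm, and the groups of Ikzf1 and Ikzf5 overlap.

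Scaled to the covered length, the order of the genes was Ikzf5, Ikzf1, Ikzf2 and Ikzf3, Ikzf4. In KO MZB the levels were 40.3, 29.0, 26.1, 22.8 and 13.9 rppm per kb, in WT MZB 36.7, 29.9, 22.7, 22.6 and 15.5, in KO FoB 43.7, 29.4, 23.1, 20.2 and 10.2, and in WT FoB 42.6, 30.2, 22.6, 21.2 and 8.88. Ikzf2 and Ikzf3 lay less than 1 SD of Ikzf2 apart in all groups but KO MZB (SDs of Ikzf2 0.838 to 7.46 rppm per kb).

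No region of the family was called for LSD1 knockout against wild type in either cell type. Among MZB, 0 of 64 passed the limma threshold (adjusted p under 0.05, where 0.777% of all 89782 regions passed), 10 had an unadjusted p under 0.05 in limma, and edgeR and DESeq2 on the recovered reads also called 0, with 9 and 1 at an unadjusted p under 0.05. Among FoB, 0 of 64 passed (background 0.539%), 0 had an unadjusted p under 0.05 in limma, and edgeR and DESeq2 called 0, with 2 and 0 at that unadjusted p. The difference between the 2 knockout effects was called at 0 of 64 regions by limma (background 0.00111%), with 2 at an unadjusted p under 0.05, and at 0 by edgeR and DESeq2, with 1 and 0. The share of all regions at an unadjusted p under 0.05 was not computed. Counts at that unadjusted p, here and for the gene lists, therefore have no background beside them. The median log2 difference of KO against WT was -0.02 among members and -0.02 among all regions in MZB, and -0.03 against -0.02 in FoB. Libraries of the genotypes did not overlap at 5 members in MZB (3 higher and 2 lower in KO, 7.81%, background 17.7%, made up of 8.13% higher and 9.55% lower) and at 5 in FoB (1 higher and 4 lower, background 14.7%, made up of 7.18% and 7.51%).

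The 95% intervals below show how precisely a KO against WT difference was measured, and are not adjusted for the number of regions. A call needed more than an interval that excluded 0, since 10 members in MZB had an unadjusted p under 0.05 and none was called. Changes larger than these half-widths could therefore have gone uncalled. The 95% interval of a KO against WT difference reached 0.45 on the log2 scale to either side at the median region, 0.30 at the 23 regions with a mean of at least 10 rppm and 0.53 below that. The whole interval lay between -1 and 1 at 53 of 64 regions in MZB and at 58 of 64 in FoB. Member differences ran from -0.63 to 0.92 in MZB and from -0.41 to 0.48 in FoB.

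The smallest p-values of the genotype comparison belonged to single regions of Ikzf1, Ikzf2 and Ikzf3. Ikzf1 region 1, the farthest upstream (chr11:11656360-11656696, 28266 bp before the gene), stood at 7.23, 5.99 and 5.62 rppm in KO MZB against 4.05, 4.79 and 2.49 rppm in WT MZB, and at 7.45, 6.59 and 4.32 rppm in KO FoB against 6.02, 5.49 and 9.31 rppm in WT FoB. The genotypes did not overlap in MZB and did in FoB. Its difference was 0.70 ± 0.25 in MZB (limma adjusted p = 0.198) and -0.17 ± 0.25 in FoB (limma adjusted p = 0.915), and the gap between the 2 effects was 0.86 ± 0.36 (limma adjusted p = 0.769). Ikzf3 region 8 (chr11:98497385-98497744) stood at 5.598, 8.52 and 3.84 rppm in KO MZB against 8.64, 12.2 and 6.53 rppm in WT MZB, with overlap (-0.59 ± 0.23, limma adjusted p = 0.236). Ikzf1 region 31 (chr11:11758848-11759301) stood at 20.1, 24.0 and 18.0 rppm in KO MZB against 30.0, 25.3 and 23.3 rppm in WT MZB, also with overlap (-0.33 ± 0.13, limma adjusted p = 0.248). At Helios, region 2, just inside the high-coordinate end of Ikzf2 (chr1:69687125-69687273), held 2.10, 3.15 and 2.07 rppm in KO MZB against 0.810, 1.06 and 1.24 rppm in WT MZB. That was the largest difference among members in MZB, on few reads, and did not pass (0.92 ± 0.39, limma adjusted p = 0.279). In FoB the smallest adjusted p was that of Ikzf1 region 37, downstream of the gene (chr11:11777895-11778089), at 6.00, 6.18 and 8.39 rppm in KO FoB against 11.8, 7.33 and 8.60 rppm in WT FoB (-0.39 ± 0.20, limma adjusted p = 0.587). The next 2 were Ikzf3 region 18 at -0.31 (limma adjusted p = 0.637) and Ikzf1 region 10 at -0.41 (limma adjusted p = 0.654). For the difference between the effects, the next after Ikzf1 region 1 were Ikzf3 region 18 at 0.51 ± 0.25 (limma adjusted p = 0.798) and Ikzf3 region 4 at -0.84 ± 0.45 (limma adjusted p = 0.815).

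**Figure D2:**
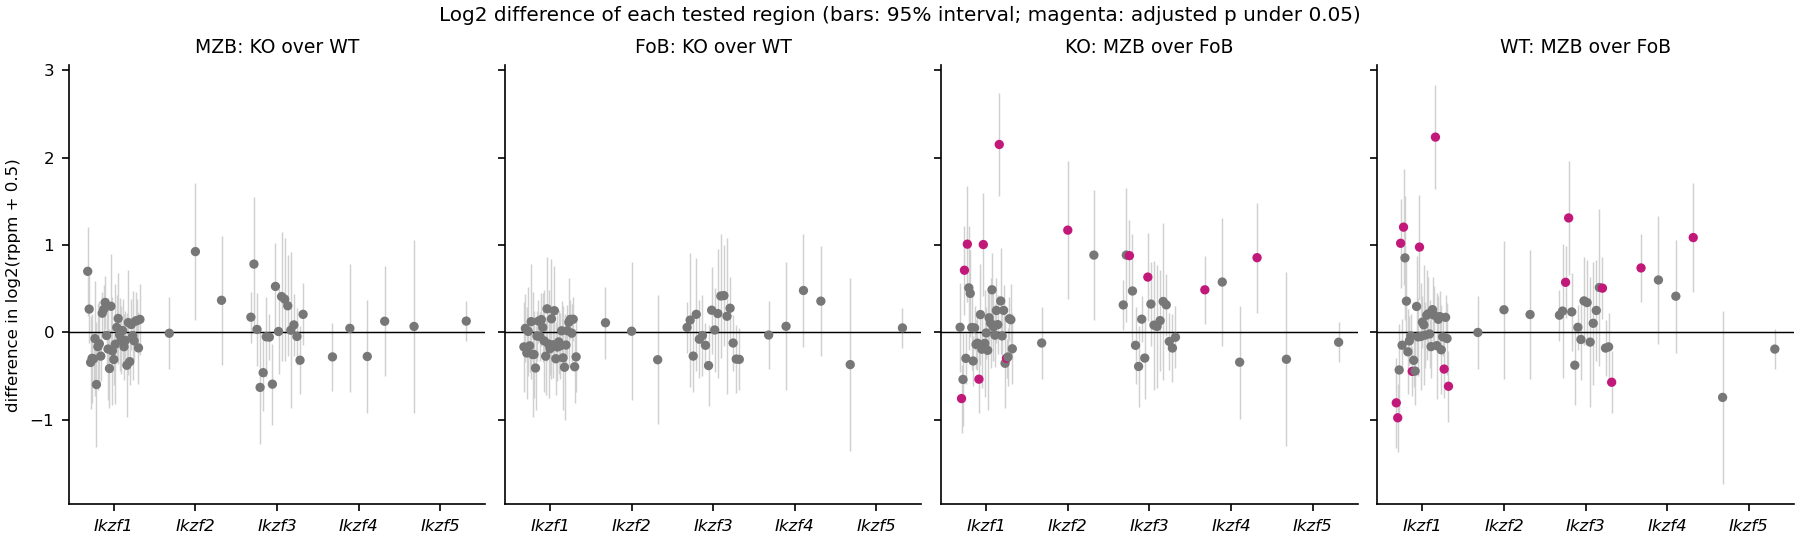
Log2 difference of each of the 64 tested member regions with its 95% interval, arranged by gene, with panels for KO over WT in MZB and in FoB and for MZB over FoB in KO and in WT. Magenta marks an adjusted p under 0.05, which no region has in the KO over WT panels, where values run from -0.63 to 0.92 in MZB and from -0.41 to 0.48 in FoB.

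Strong regions sat at the annotated starts of Ikzf1 and Ikzf5 and at a few other sites. The single strongest of Ikzf1, of Ikzf3 and of Ikzf5 was called in no comparison. Ikzf1 region 11, at the CG-rich first start printed above (chr11:11685523-11686377), held 21.9, 38.2 and 29.8 rppm in KO MZB, 35.1, 37.0 and 34.2 in WT MZB, 30.4, 37.1 and 44.2 in KO FoB, and 41.1, 37.8 and 35.1 in WT FoB. All 4 groups overlap. The second start lies in region 12 (chr11:11690015-11690591), with 33.4, 29.7 and 29.8 rppm in KO MZB, 22.9, 30.6 and 26.4 in WT MZB, 30.4, 30.9 and 28.2 in KO FoB, and 24.1, 29.5 and 28.4 in WT FoB. Region 36, 3741 bp downstream of Ikzf1 (chr11:11776671-11777390), was as strong as the promoter, with 32.2, 46.7 and 35.2 rppm in KO MZB, 37.8, 34.6 and 30.5 in WT MZB, 36.6, 34.6 and 30.0 in KO FoB, and 30.7, 32.6 and 27.7 in WT FoB. None of these 3 was called in any comparison. Region 34, in the body at a mean of 33.4 rppm, was called between the KO cell types, as given below.

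Ikzf5 region 2 (chr7:131410015-131410886) was the strongest of all members. It held 39.4, 43.8 and 35.8 rppm in KO MZB, 34.0, 35.9 and 38.6 in WT MZB, 37.2, 44.5 and 47.3 in KO FoB, and 43.5, 44.0 and 36.8 in WT FoB. It covers a shared promoter, since Acadsb, which encodes an acyl-CoA dehydrogenase, starts 123 bp away on the other strand, so its reads cannot be given to Ikzf5 alone. The other Ikzf5 region lay between 0 and 2.19 rppm. At Aiolos the strongest was region 7, inside the gene (chr11:98492979-98493748), at 20.1 to 26.9 rppm in the KO and WT MZB libraries and 20.3 to 25.0 rppm in the FoB libraries. Region 16 covers the high-coordinate end of Ikzf3 (chr11:98545816-98546195). It lay at 11.7, 19.9 and 13.6 rppm in KO MZB, 14.8, 15.4 and 15.2 in WT MZB, 16.1, 15.04 and 16.3 in KO FoB, and 19.7, 16.5 and 15.8 in WT FoB. Most of the Helios signal came from region 1, which lies 74256 bp from Ikzf2 (chr1:69456740-69456951) at 7.81 to 17.0 rppm. The region just inside the high-coordinate end of Ikzf2 stayed at 0.412 to 3.15 rppm.

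Between the cell types, single regions of Ikzf1 were called in both directions while its sum was not called. In KO cells 9 members were higher in MZB and 3 lower (18.8% of 64, against 32.7% of all regions, 23.2% higher and 9.47% lower). In WT cells 9 were higher and 6 lower (23.4%, against 35.7% of all, 24.2% higher and 11.4% lower). Both shares lie below those of all regions, which is given as a description and was not tested. Libraries of the cell types did not overlap at 25.0% of members in KO (background 42.3%) and 32.8% in WT (background 46.7%). The median log2 difference of MZB against FoB over all regions was 0.14 in KO and 0.18 in WT cells, and over the members 0.08 in KO and 0.10 in WT cells. Scaling moves it: with TMM (edgeR) it was 0.01 in KO and 0.05 in WT cells over all regions, and with quantile normalisation -0.08 in both. Over all regions, the split of 21757 higher and 10269 lower in WT became 18147 and 17032 with TMM and 13509 and 13806 with quantile normalisation, and the 9 higher and 6 lower members became 7 and 10 with TMM and 4 and 10 with quantile normalisation. Quantile normalisation ended 8 of the 12 KO calls, at Ikzf1 regions 4, 6, 18 and 34, Ikzf2 region 2, Ikzf3 region 9 and Ikzf4 regions 1 and 4, and 5 of the 15 WT calls, at Ikzf1 regions 6 and 18, Ikzf3 regions 3 and 15 and Ikzf4 region 4. DESeq2 ended the same KO calls but for Ikzf1 region 34, and the WT calls at Ikzf1 region 18, Ikzf3 regions 3 and 15 and Ikzf4 region 1. TMM ended the KO calls at Ikzf1 region 4, Ikzf3 region 9 and Ikzf4 regions 1 and 4 and the WT calls at Ikzf1 region 18 and Ikzf3 region 15. A pseudocount of 0.1 ended the KO calls at Ikzf3 region 9 and Ikzf4 region 1, and a fit to the compared groups alone that at Ikzf4 region 1.

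Of these calls 8 were made in both genotypes, all in the same direction, which is 66.7% of the 12 KO calls and 53.3% of the 15 WT calls. The 2 comparisons use separate libraries but share an estimate of the spread, since all 12 libraries entered a single fit, so they are not independent tests. Of the 19 members called in either, 18 had the same sign in both, and over all 64 the log2 differences correlated at r = 0.81 across regions, which are not independent replicates. The same overlap, sign count and correlation were not computed over all regions. Whether the family differs from other regions in this was not tested.

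By gene, Ikzf1 had 4 regions higher and 3 lower of 37 in KO and 4 and 5 in WT. Ikzf3 had 2 higher and 0 lower of 18 in KO and 3 and 1 in WT. At Ikzf4 2 of 4 were higher in both genotypes, at Ikzf2 1 of 3 was higher in KO and 0 were called in WT, and at Ikzf5 neither region was called. Along Ikzf1 the WT calls were 2 higher and 2 lower of the 8 tested upstream regions, 2 and 2 of the 26 over the gene body and 0 and 1 of the 3 downstream.

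**Figure D3:**
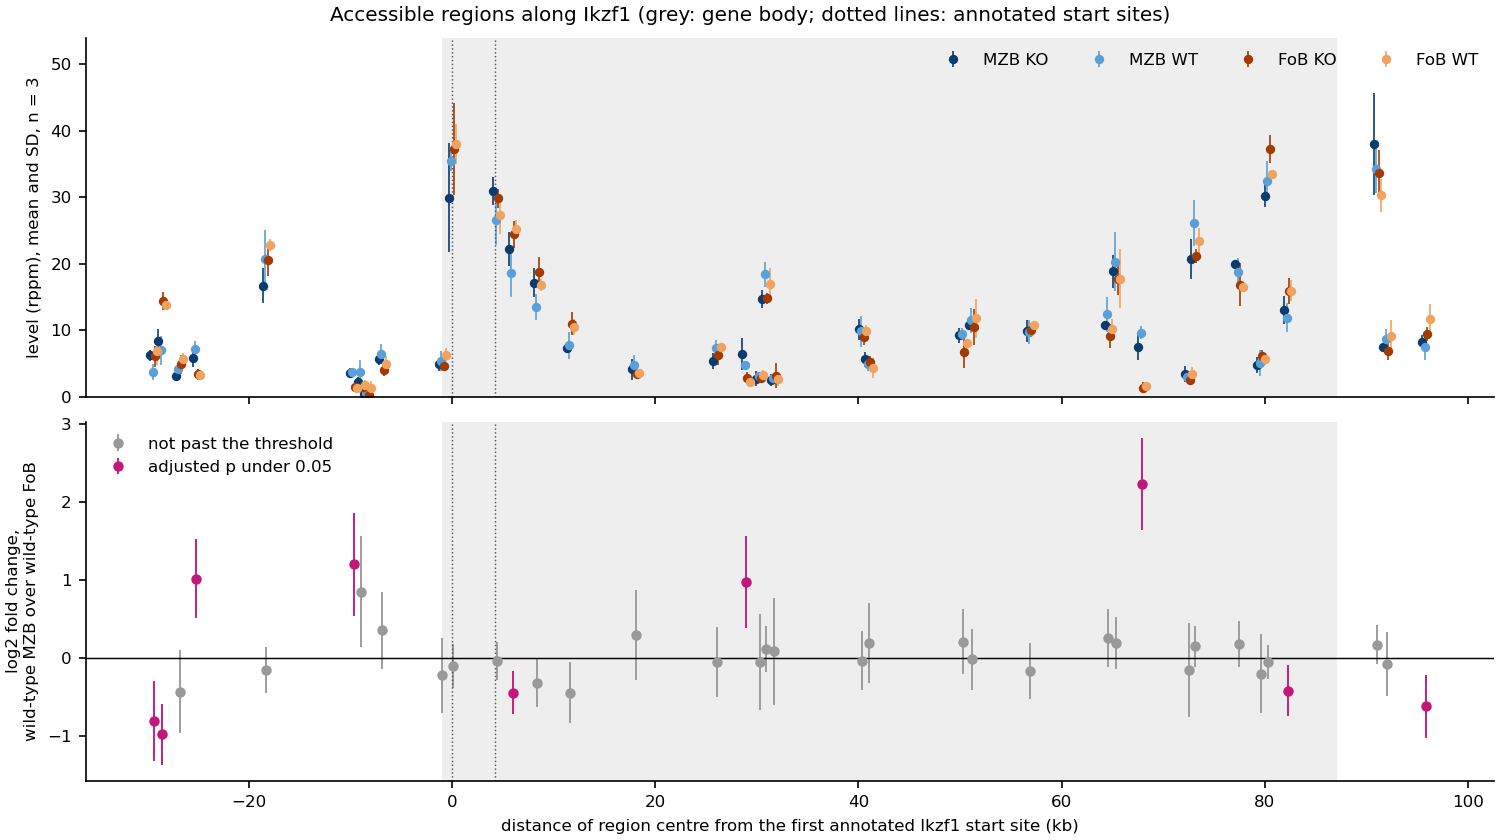
Accessibility of the Ikzf1 regions by distance in kb from the first start site, with the mean and SD of each group in rppm (n = 3) above and the log2 difference of WT MZB over WT FoB with its 95% interval below. Grey marks the gene body, dotted lines the 2 starts with a promoter window and magenta an adjusted p under 0.05. Regions 11 and 36 average 35.2 and 34.1 rppm over the 12 libraries, and the largest difference, 2.23, is at region 29 in the gene body.

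The clearest member was Ikzf1 region 29, late in the gene body (chr11:11753715-11753999). It held 9.56, 6.31 and 6.50 rppm in KO MZB, 9.72, 10.6 and 8.71 rppm in WT MZB, 2.28, 0.618 and 1.27 rppm in KO FoB, and 1.37, 1.73 and 1.91 rppm in WT FoB. Every MZB library stood above every FoB library of its genotype. The region was higher in KO MZB than in KO FoB by 2.15 ± 0.29 on the log2 scale (limma adjusted p = 3.62e-07) and in WT MZB than in WT FoB by 2.23 ± 0.29, or 4.70-fold (limma adjusted p = 1.53e-07). KO and WT MZB did not differ by the test (-0.38 ± 0.29, limma adjusted p = 0.620).

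Another 3 Ikzf1 regions were higher in MZB of both genotypes, 2 upstream and 1 in the body, and each of these KO calls was lost under the settings given above and without some single library. Region 4, 24106 bp upstream (chr11:11660567-11660856), held 7.23, 5.99 and 4.43 rppm in KO MZB against 4.14, 3.502 and 2.54 rppm in KO FoB, and 8.64, 6.65 and 6.53 rppm in WT MZB against 3.01, 3.86 and 3.104 rppm in WT FoB. The differences were 0.71 ± 0.25 in KO (limma adjusted p = 0.0267, and up to 0.136 without any 1 of 3 libraries, KO MZB 1 and 2 and KO FoB 3) and 1.02 ± 0.25 in WT (limma adjusted p = 0.00148). Region 6, 8607 bp upstream (chr11:11676036-11676355), held 3.96, 4.10 and 2.66 rppm in KO MZB against 2.07, 1.03 and 1.52 rppm in KO FoB, and 4.05, 3.72 and 3.42 rppm in WT MZB against 1.37, 0.867 and 1.91 rppm in WT FoB. The cell types did not overlap at either region. At region 6 the differences were 1.01 ± 0.33 in KO (limma adjusted p = 0.0155, and up to 0.0813 without any 1 of 3 libraries, KO MZB 1 and 2 and KO FoB 2) and 1.20 ± 0.33 in WT (limma adjusted p = 0.00363). Region 18, in the body (chr11:11714760-11714950), held 3.73, 7.26 and 8.27 rppm in KO MZB against 3.72, 2.06 and 2.80 rppm in KO FoB, and 5.13, 4.52 and 4.98 rppm in WT MZB against 1.64, 3.08 and 2.15 rppm in WT FoB. The cell types did not overlap, although KO MZB library 1 stood barely above the highest KO FoB library. Its differences were 1.00 ± 0.29 in KO (limma adjusted p = 0.00718, and 0.0679 without KO MZB library 3) and 0.98 ± 0.29 in WT (limma adjusted p = 0.00819, and 0.0522 with TMM in edgeR).

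One Ikzf1 region was lower in MZB of both genotypes. Region 2, 27375 bp upstream (chr11:11657056-11657587), held 6.30, 9.78 and 9.16 rppm in KO MZB against 13.2, 15.9 and 14.0 rppm in KO FoB, and 5.13, 9.30 and 6.53 rppm in WT MZB against 13.1, 14.4 and 14.1 rppm in WT FoB. It fell by 0.76 in KO (SE 0.19, limma adjusted p = 0.00222) and by 0.98 in WT (SE 0.19, limma adjusted p = 0.000111). Its neighbour region 1, with the values given above, stood at 0.06 ± 0.25 in KO (limma adjusted p = 0.889) and fell by 0.81 in WT (limma adjusted p = 0.0114, and 0.102 or 0.114 without library 3 of WT MZB or of WT FoB). Region 13, in the body near the second start (chr11:11691657-11692053), held 22.4, 18.1 and 15.2 rppm in WT MZB against 23.5, 26.0 and 26.0 rppm in WT FoB (-0.45 ± 0.14, limma adjusted p = 0.00983, and 0.0966 without WT MZB library 3). The other WT calls of Ikzf1 were regions 35 and 38, at -0.42 and -0.62. Region 35 missed the threshold without WT MZB library 1 (where it stood at -0.27) or WT FoB library 2 or 3, and region 38 without WT MZB library 3 (at -0.39) or WT FoB library 1. In KO cells the calls not shared with WT were region 15 at -0.54 ± 0.19 (limma adjusted p = 0.0305, and up to 0.137 without any 1 of 4 libraries, KO MZB 1 and 3 and KO FoB 1 and 3) and region 34, which averaged 33.4 rppm, at -0.30 (limma adjusted p = 0.0341, and up to 0.120 without any 1 of 3 libraries, KO MZB 1 and KO FoB 1 and 2). Whether these differ between the genotypes is the interaction test above, which called none.

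At Aiolos the region higher in MZB of both genotypes was region 3 (chr11:98477175-98477813), toward the low-coordinate end of the gene. It held 9.56, 9.46 and 8.57 rppm in KO MZB against 4.55, 4.94 and 4.83 rppm in KO FoB, and 10.8, 8.24 and 8.09 rppm in WT MZB against 6.02, 4.82 and 6.92 rppm in WT FoB. The cell types did not overlap in either genotype. The difference was 0.88 ± 0.20 in KO (limma adjusted p = 0.000901) and 0.57 ± 0.20 in WT (limma adjusted p = 0.0258, and 0.140 without WT MZB library 1 or 0.148 without WT FoB library 2). Region 4 (chr11:98479123-98479304) held 3.03, 3.79 and 2.66 rppm in KO MZB against 2.28, 2.68 and 1.52 rppm in KO FoB (0.47 ± 0.32, limma adjusted p = 0.273), and 7.83, 4.52 and 3.73 rppm in WT MZB against 1.095, 2.02 and 2.39 rppm in WT FoB (1.31 ± 0.32, limma adjusted p = 0.00136). Region 15 (chr11:98542709-98543112) held 9.72, 11.2 and 10.9 rppm in WT MZB against 8.21, 7.33 and 6.45 rppm in WT FoB (0.51 ± 0.18, limma adjusted p = 0.0224, and up to 0.109 without any 1 of 4 libraries, WT MZB 2 and 3 and WT FoB 2 and 3). The lower one was region 18, 1347 bp beyond the high-coordinate end of the gene (chr11:98547378-98547647). It stood at 11.3, 10.9 and 9.02 rppm in WT MZB against 15.9, 15.5 and 15.5 rppm in WT FoB (-0.57 ± 0.17, limma adjusted p = 0.00965, and 0.0585 without WT MZB library 3). In KO cells region 9 (chr11:98514862-98515229) was higher in MZB at 6.76, 8.83 and 6.80 rppm against 6.00, 4.53 and 3.56 rppm in KO FoB (0.63 ± 0.25, limma adjusted p = 0.0454, and up to 0.204 without any 1 of 6 libraries, the 3 of KO MZB, KO FoB 2 and 3, and WT FoB 2).

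The 2 called regions of Eos made up most of its signal. Ikzf4 region 1 (chr10:128636551-128637417) held 13.5, 11.99 and 8.57 rppm in KO MZB against 6.00, 10.1 and 7.88 rppm in KO FoB, and 14.3, 12.8 and 14.0 rppm in WT MZB against 7.39, 8.29 and 8.36 rppm in WT FoB. The KO cell types overlapped and the WT cell types did not. The difference was 0.49 ± 0.19 in KO (limma adjusted p = 0.0463, and up to 0.271 without any 1 of 9 libraries, all but KO MZB 3, KO FoB 2 and WT FoB 1) and 0.74 ± 0.19 in WT (limma adjusted p = 0.00237). Region 4 (chr10:128669417-128669606) lies just inside the high-coordinate end of the gene, near Suox, which encodes sulfite oxidase. It held 4.90, 5.36 and 4.14 rppm in KO MZB against 1.45, 3.09 and 3.05 rppm in KO FoB, and 2.70, 5.58 and 5.29 rppm in WT MZB against 1.37, 2.12 and 1.91 rppm in WT FoB. There was no overlap in either genotype. It was higher by 0.85 ± 0.31 in KO (limma adjusted p = 0.0313, and up to 0.208 without any 1 of 3 libraries, KO MZB 1 and 2 and KO FoB 1) and by 1.08 ± 0.31 in WT (limma adjusted p = 0.00566). At Helios region 2, just inside the high-coordinate end of Ikzf2, held 2.10, 3.15 and 2.07 rppm in KO MZB against 0.828, 0.412 and 1.27 rppm in KO FoB (1.17 ± 0.39, limma adjusted p = 0.0184, and 0.0831 or 0.103 without library 2 of KO MZB or of KO FoB). In WT it was 0.26 ± 0.39 (limma adjusted p = 0.648). Apart from Ikzf2 region 1, given above, the uncalled members of these genes were low, Ikzf2 region 3 at 0.508 to 3.55 rppm, Ikzf4 region 2 at 0.821 to 2.57 rppm and Ikzf4 region 3 at 1.48 to 4.83 rppm. The T cell and myeloid marker sums given above were higher in MZB as well and those of immature and transitional B cells lower, and their part in the differences at Ikzf2 and Ikzf4 was not tested.

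**Figure D4:**
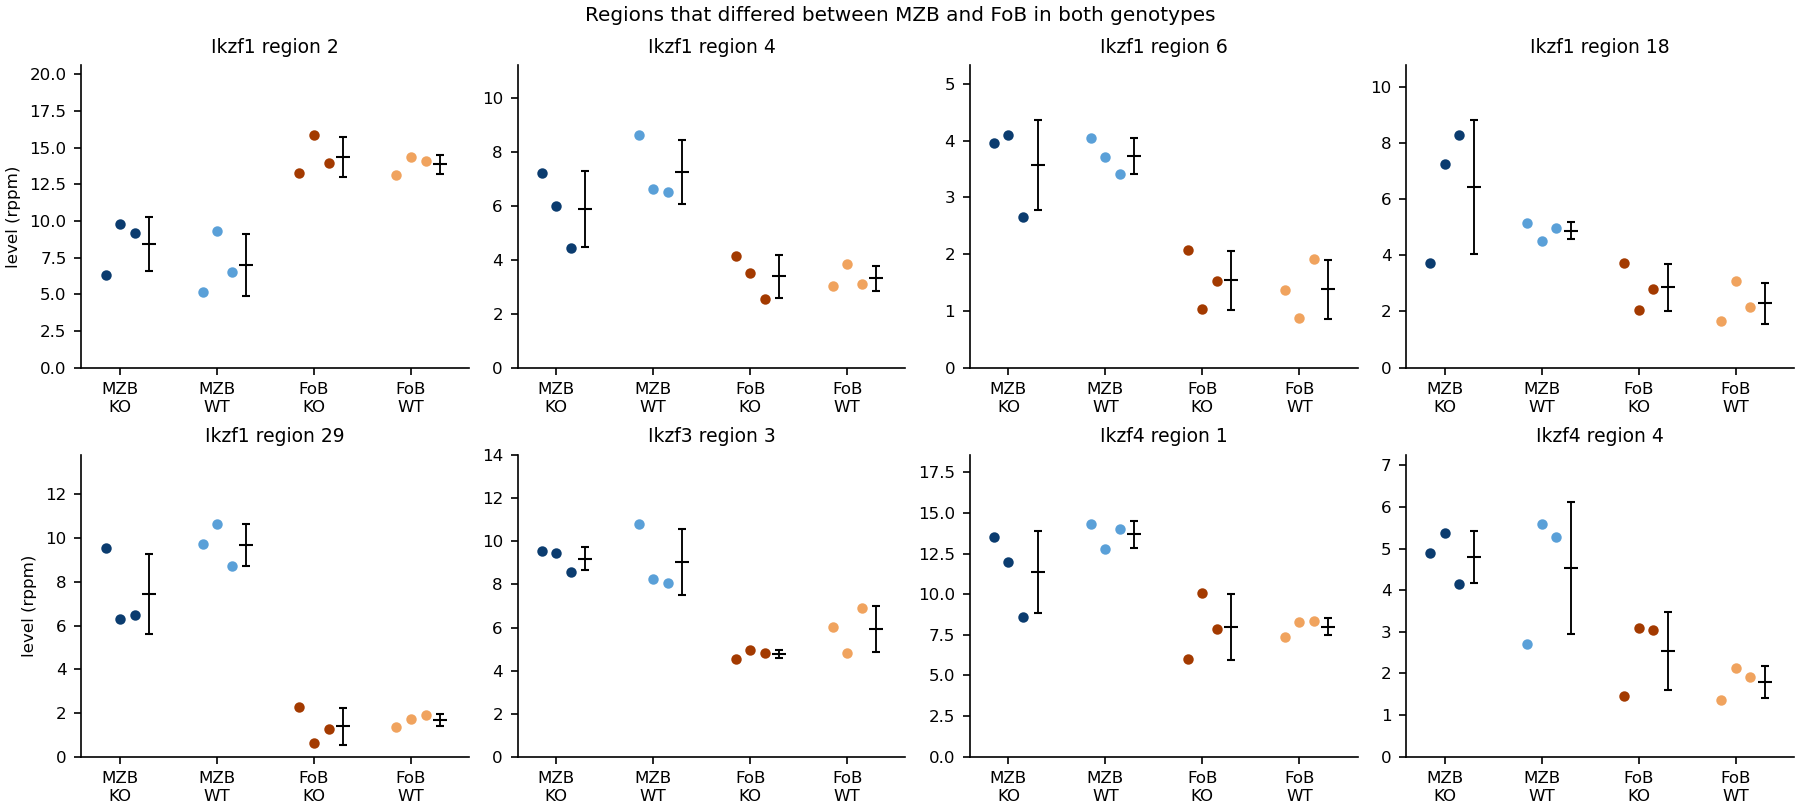
The 8 member regions called between MZB and FoB in both genotypes, in rppm on linear axes from 0, with a point for each library and bars for mean ± SD (n = 3). Ikzf1 region 2 is lower in MZB and the other 7 are higher, and at Ikzf4 region 1 the KO libraries overlap.

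Regions at genes that act with the family are given as counts beside the shares of all regions, as a description. By genotype 0.777% of all regions were called in MZB and 0.539% in FoB, and by cell type 32.7% in KO and 35.7% in WT. The corepressor partners (NuRD, Sin3, CtBP and LSD1 complexes, and also Smarca4) had regions at 19 of 20 genes. Of their 117 regions, 0 were called by limma for genotype in either cell type (9 in MZB and 9 in FoB at an unadjusted p under 0.05), while 10 were higher and 16 lower in KO MZB than in KO FoB (22.2%), and 13 and 17 in WT (25.6%), both below the shares of all regions. The 6 genes listed for the cereblon ligase had 28 regions at 4 of them. A region 55687 bp from Cand1 was the 1 of the 28 lower in KO than in WT FoB (3.57%). It averaged 0.460 rppm in KO FoB against 1.84 rppm in WT FoB, on few reads. In MZB 0 of the 28 were called for genotype (5 at an unadjusted p under 0.05). By cell type, 4 were higher and 5 lower in KO MZB than in KO FoB (32.1%), and 3 and 4 in WT (25%). Genes known as targets of Ikaros or Aiolos in lymphocytes had 436 regions at 23 of 24 genes. In MZB 2 were higher in KO than in WT (near Myc, 360523 bp away, and at Ccnd3) and 3 lower, all at Bcl2 (1.15% in all), and in FoB 1 was lower, again at Bcl2 (0.229%). That Bcl2 region (chr1:106561009-106561731) fell by 1.08 in KO MZB (limma adjusted p = 0.00868) and by 1.63 in KO FoB (limma adjusted p = 2.92e-05). Between the cell types 91 target regions were higher and 48 lower in KO MZB (31.9%, background 32.7%), and 87 and 72 in WT MZB (36.5%, background 35.7%).

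The genes whose summed accessibility ran most like each member over the 12 libraries were Lrrc8d and Dock2 for Ikzf1 (Pearson r = 0.83 and 0.82), Chst2 and Tcstv3 for Ikzf2 (0.95 and 0.91), Cab39 and Alk for Ikzf3 (0.94 and 0.93), Krt8 and Tecpr2 for Ikzf4 (0.95 and 0.92), and Hdac5 and Trim14 for Ikzf5 (0.94 and 0.88). They were picked as the highest of all genes with at least 3 regions, share library and depth with the members, and are given as a description.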

How the data were processed

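RPM values for 94161 regions in 12 libraries were deposited by the authors (rppm: reads per peak, scaled so that each library sums to 1000000 over these regions). The submitters' processing notes name Bowtie 1.1.1, MACS2 and the build mm10. How peaks were merged, whether reads were shifted for Tn5, and the base from which coordinates count are not stated in what was used here, so coordinates are printed unaltered. Whole reads were recovered from 100% of values (tolerance 0.01). Replicate pairs gave a chi-square per degree of freedom of 1.09 to 1.78, more than counting noise alone.

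Each region took the overlapping or nearest of 21896 protein-coding genes in a RefSeq table on GRCm38.p6, without exons or introns. A filter of 1 rppm in 3 or more libraries left 89782 regions and removed 4379. Differences were tested on log2(rppm + 0.5), which understates changes of low regions, with limma 3.58.1 in R 4.3.3 (eBayes with trend, 4 group coefficients, all 12 libraries in one fit, two-sided). Benjamini-Hochberg adjustment ran over all regions, or over all 16275 genes for sums of rppm, with a threshold of 0.05. Recovered reads also went through edgeR 4.0.16 (quasi-likelihood test, alone or with TMM) and DESeq2 1.42.0, alternatives that were added after seeing the data. The limma procedure was also run on simulated reads with a fixed spread and with changes in KO MZB only. Its outcome is not given here and is not used for the calls.

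The members, gene lists and tests were chosen with earlier results of these data known. For each gene the text names its strongest and its promoter or gene-end regions, the regions called by genotype or else the 3 with the smallest p, up to 3 in each direction between the WT cell types and up to 2 between the KO cell types. The others named by number complete the counts and were chosen after their values were seen. Deviations of same-numbered libraries from their group means correlated at -0.0934 to 0.134. Correlations of differently numbered libraries were not computed, so this cannot tell whether libraries were paired. The labels state no pairs, and numbers were not used as pairs.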

Additional observations from a re-analysis of the deposited data

How the results depend on the processing

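The genotype counts of member regions, 0 in each direction in MZB, in FoB and for their difference, stayed at 0 under every setting run. With a replicate block the counts between the cell types were 9 higher and 3 lower in KO and 9 and 6 in WT, as without it, and the block changed no member's call. The labels do not say whether equal numbers mark pairs of libraries. Low depth limits weak regions most. The causes of the changes below were not tested.

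For counts of member regions between MZB and FoB, quantile normalisation gave 2 higher and 6 lower in KO and 4 and 10 in WT. TMM gave 5 higher and 8 lower in KO, and 10 lower in WT. DESeq2 gave 2 higher in KO and 5 higher in WT, and regions over gene bodies alone gave 2 lower in WT. Leaving out 1 library gave 3 to 9 higher and 1 to 4 lower in KO, the fewest higher without KO MZB library 2 and the fewest lower without KO MZB library 1.

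Log2 differences of gene sums moved as follows. For KO MZB against KO FoB, Ikzf3 missed the threshold at 0.17 with a pseudocount of 0.1, at 0.17 in a fit to the compared groups alone, at 0.16 with edgeR, 0.15 with TMM and 0.15 with DESeq2. Ikzf4 missed it at 0.44 in that fit to the compared groups, at 0.24 with quantile normalisation and at 0.45 with DESeq2. Quantile normalisation reversed the uncalled differences of Ikzf2 (-0.0695 in KO and -0.23 in WT) and Ikzf1 (0.00775 in KO, and 0.0161 for the difference between knockout effects, which was 0.00225 with TMM). Gene-body regions alone called Ikzf2 in KO at 1.17 and Ikzf3 in WT at 0.19, and gave 0.000164 for Ikzf1 in WT. Regions within 50 kb, for Ikzf2 the weak regions 2 and 3, called Ikzf2 in KO at 1.05 and gave it -0.13 for KO against WT FoB.

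Leaving out 1 library gave the following ranges. Between MZB and FoB in KO, Ikzf3 ran from 0.10 to 0.22, Ikzf4 from 0.24 to 0.65 and Ikzf1 from -0.0716 to 0.0108. In WT, Ikzf1 ran from -0.0475 to 0.0125 and Ikzf2 from -0.19 to 0.29. For KO against WT in MZB, Ikzf3 ran from -0.0578 to 0.0671 and Ikzf4 from -0.30 to 0.0240. In FoB, Ikzf1 ran from -0.0680 to 8.68e-05, Ikzf2 from -0.18 to 0.30 and Ikzf5 from -0.0484 to 0.13. The difference between the knockout effects ran from -0.0542 to 0.0283 for Ikzf1 and from -0.11 to 0.37 for Ikzf2. Of the 12 KO calls at member regions 3 held without any 1 library, and of the 15 WT calls 8 did.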
